A study of Mus musculus with 6 samples.

Results

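Interferon-stimulated genes were examined in skeletal muscle of FLExDUX4 mice, a model of facioscapulohumeral muscular dystrophy (FSHD). The 9 genes (Stat2, Irf7, Irf9, Isg15, Ifit1, Ifit3, Ifitm3, Bst2 and Oasl2) were chosen by symbol from the 52550 mouse genes of the deposited table, in which each has 1 row. FLExDUX4 mice are hemizygous for an inverted human DUX4 transgene, placed at the Rosa26 locus between lox sites. No Cre was present, so any DUX4 transcript comes from leaky expression, and the level of the transgene was not analysed here. The controls were wild-type (WT) littermates. According to the labels, all animals were males 13 weeks old and the tissue was quadriceps, whereas the study's methods name triceps of mice 2 months old. Each genotype had 3 mice, and the values used are counts summed over the 3.

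Interferons are secreted proteins that cells release on sensing foreign or misplaced nucleic acid. Type I interferons bind a receptor whose kinases, JAK1 and TYK2, phosphorylate transcription factors such as STAT2. Together with IRF9, STAT2 forms part of a complex named ISGF3, which binds interferon-stimulated response elements (ISRE) in the promoters of its target genes. The targets include the sensors, transcription factors and antiviral proteins of the pathway itself. In muscle, such genes are best known from inflammatory myopathies, in which their transcripts are abundant.

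The promoters of the 9 genes show how many carry this element close to the transcription start. Each gene was matched by symbol in a RefSeq table for GRCm38.p6 that covers 250 bases before and 50 after each start. The core, GAAA followed by any 2 bases and a second GAAA, was searched on both strands. It was found for 6 of the 9 genes, whereas 3.99% of the 27025 genes in the table, and 3.44% of its 32851 promoters, held it. The matching windows are given below, 5′ to 3′ on the strand of the gene, with the matches in capitals and positions counted from the start.
Isg15 (chr4:156200865-156200906, minus strand, -88 to -47): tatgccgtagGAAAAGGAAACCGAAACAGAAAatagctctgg
Bst2 (chr8:71537577-71537612, minus strand, -140 to -105): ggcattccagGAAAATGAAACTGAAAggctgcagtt
Ifitm3 (chr7:141010716-141010742, minus strand, 3 to 29): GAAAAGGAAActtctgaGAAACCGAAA
Ifit1 (chr19:34640775-34640823, plus strand, -114 to -66): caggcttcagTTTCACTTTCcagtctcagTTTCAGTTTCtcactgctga
Ifit3 (chr19:34583363-34583426, plus strand, -166 to -103): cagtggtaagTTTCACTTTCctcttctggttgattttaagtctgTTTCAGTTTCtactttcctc
Stat2 (chr10:128270266-128270295, plus strand, -232 to -203): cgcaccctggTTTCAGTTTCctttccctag
Isg15 held 3 overlapping matches and Bst2 held 2 overlapping ones, so the capitals run on without a break. Ifit1 and Ifit3 each held 2 separate matches, both on the strand opposite the gene, where the core reads TTTC, any 2 bases, TTTC. Ifitm3 alone had its matches after the start. No match was found in these windows for Irf7, Irf9 or Oasl2. A gamma-activated site (GAS, TTCNNNGAA, a palindrome), an element of interferon gamma responses, was found in the promoters of Bst2 and Ifitm3, where it overlapped 1 of the ISRE cores in each, and for 9.55% of all genes in the table.

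**Figure D1:**
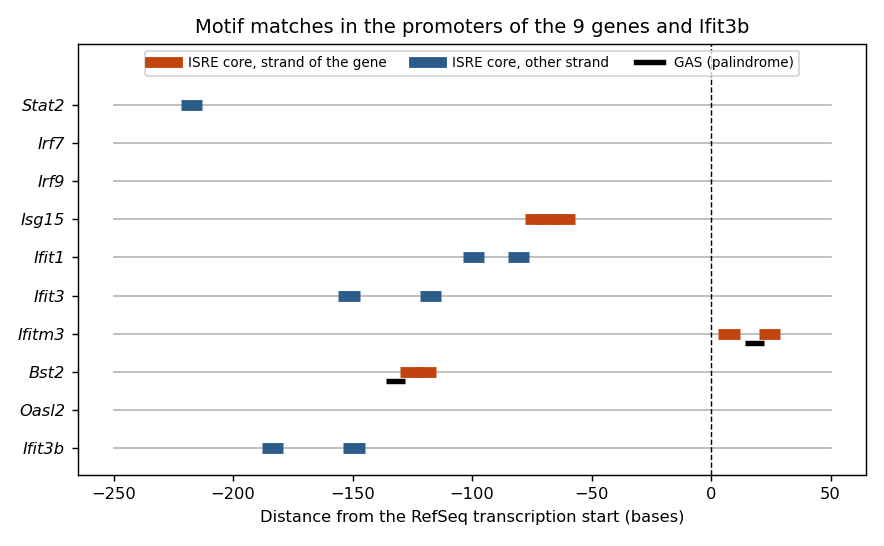
Matches to the ISRE core and to GAS in the promoters of the 9 genes and of Ifit3b, a copy of Ifit3, by distance from the RefSeq transcription start in bases. Orange and blue blocks are ISRE cores on the strand of the gene and on the other strand, and black bars are GAS matches. Of the 9 genes, 6 hold at least 1 core.

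The library totals on mouse genes were 13110125 counts for FLExDUX4 mice and 18367364 for WT mice, and levels are given in CPM (counts per 1000000 counts, with library sizes scaled by TMM). A single count equalled 0.0771 and 0.0539 CPM. QuantSeq reads the 3′ end of each transcript, so these levels are not divided by gene length. Skeletal muscle markers (8 genes) took 11.4% and 11.7% of the counts, which shows muscle tissue but cannot tell quadriceps from triceps. Because only totals per genotype were used, no test across mice was possible. Each comparison is a log2 ratio of FLExDUX4 to WT, followed in parentheses by its 95% Clopper-Pearson interval, in which the spread between mice has no part. A gene was called at a 1.5-fold difference. Of 13396 genes compared, 13.7% were at least 1.5-fold lower and 13.1% at least 1.5-fold higher in FLExDUX4 mice, and the interval lay wholly below 0 for 20.6% and wholly above 0 for 20.5%. Leaving out 0 was thus common among genes at large. Spike-in scaling lowered the log2 ratios by 0.28, or by less for genes with few counts because of the pseudocount, and the directions below are relative to TMM unless stated.

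In WT muscle Ifitm3 was the most abundant of the 9 genes at 62.0 CPM (95% Poisson interval 58.5 to 65.7). It was followed by Irf9 at 6.79 CPM and Stat2 at 6.25 CPM, which did not differ beyond counting error. Oasl2, Ifit3, Ifit1, Irf7 and Bst2 came next, from 2.69 down to 1.40 CPM, and within this run no gene differed from the next beyond counting error. Isg15 was the lowest at 0.485 CPM (0.222 to 0.921), below Bst2. The order in FLExDUX4 mice was the same for the leading 3 genes, with Ifitm3 at 57.3 CPM (53.3 to 61.6), Irf9 at 6.94 CPM and Stat2 at 5.78 CPM. Bst2 ranked 4 there and 8 in WT mice. Its 2.70 CPM did not differ beyond counting error from the 2.54 CPM of Oasl2, the next in the order. All 9 genes were detected in both genotypes.

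**Figure D2:**
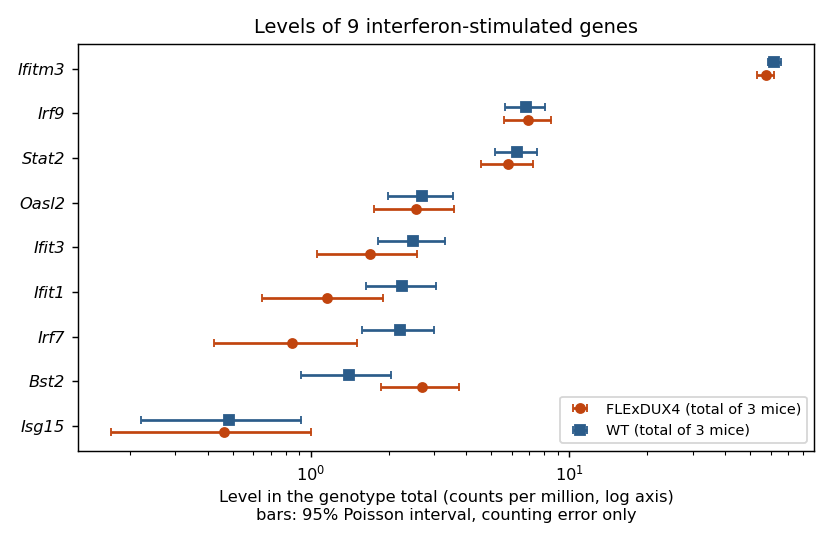
Level of each of the 9 genes in CPM on a log axis, for the FLExDUX4 total (orange circles) and the WT total (blue squares), with 95% Poisson intervals for counting error. Ifitm3 lies near 60 CPM in both genotypes, the other 8 genes lie below 7 CPM, and Irf7, Ifit1 and Bst2 show the widest gaps between the genotypes.

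Across the 9 genes, 7 had a lower and 2 a higher ratio in FLExDUX4 mice, against 50.3% and 49.7% of all genes compared, and 50.9% and 49.1% of genes with like counts. The median log2 ratio was -0.11, and that of all genes compared was -0.003. At 1.5-fold, 2 genes were lower (Irf7 and Ifit1) and 1 was higher (Bst2). These 3 were also the only ones of the 9 whose counting interval left out 0. All but Isg15 passed the filter on low counts, and each of the 8 passed it in both genotypes. Apart from Ifitm3, the genes had 15 to 216 counts over both totals. Among the 6429 genes in that range, 25.3% were at least 1.5-fold lower, 23.5% were at least 1.5-fold higher, and the interval lay below 0 for 18.8% and above 0 for 18.1%, so the counts of 2 and 1 among the 9 are near the background. At 2-fold only Irf7 of the 9 was lower and none was higher, beside 7.6% and 5.89% of all genes compared. The counts of the 9 genes together came to 1031 in FLExDUX4 and 1607 in WT mice, a log2 ratio of -0.12 (-0.24 to -0.01). Most of these are Ifitm3 counts, and without it the sums were 287 and 456, with a ratio of -0.15 (-0.37 to 0.06).

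**Figure D3:**
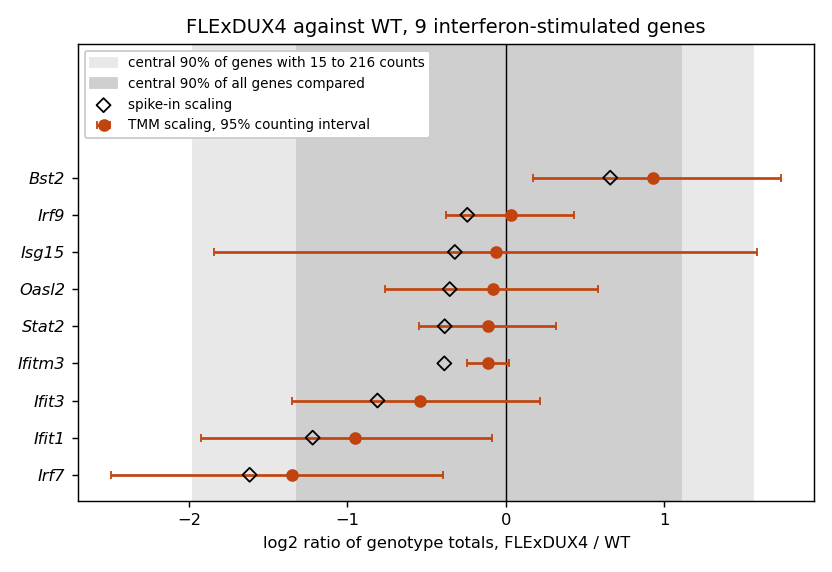
Log2 ratio of the FLExDUX4 to the WT total for each of the 9 genes under TMM scaling (orange, with 95% counting intervals) and under spike-in scaling (open diamonds). Dark and light grey show the central 90% of all genes compared and of genes with 15 to 216 counts. Bst2 is highest at 0.93 and Irf7 lowest at -1.35, and all 9 TMM ratios lie within the light grey band.

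STAT2 and IRF9 are the components of ISGF3 that are particular to it. Stat2 (ENSMUSG00000040033, GRCm38 chr10:128270559-128292849, plus strand) had 75 counts in FLExDUX4 mice and 116 in WT mice, a log2 ratio of -0.11 (-0.55 to 0.32). Irf9 (ENSMUSG00000002325, chr14:55603571-55610030, plus strand) had 90 counts against 126, a ratio of 0.03 (-0.38 to 0.43) that became -0.24 with spike-in scaling. Neither interval reached 1.5-fold in either direction under TMM scaling. Irf9 overlaps Rnf31, a gene on the same strand with 23 and 26 counts, but not in its last 1000 bases, where 3′ reads fall.

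IRF7 is the transcription factor that amplifies type I interferon production once it has itself been induced. Irf7 (ENSMUSG00000025498, chr7:141262706-141266481, minus strand) had 11 counts in FLExDUX4 mice and 41 in WT mice, or 0.848 and 2.21 CPM. The log2 ratio of -1.35 (-2.49 to -0.40) was the lowest of the 9 genes, and it was -1.62 with spike-in scaling. A lower ratio was found for 4.73% of all genes compared, most of which had more counts than Irf7. Among genes with 15 to 216 counts over both totals, the central 90% of ratios began at -1.98, so the ratio of Irf7 lay within it. The last 1000 bases of Irf7 overlap Phrf1 on the opposite strand, which had 271 counts against 282, a ratio of 0.46 (0.21 to 0.70). Whether the counting used strand is not given in the sources used here, and without strand the reads of Irf7 and Phrf1 could not be told apart.

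IFIT1 binds foreign RNA, IFIT3 is a partner of IFIT proteins, and both belong to a gene cluster on chromosome 19. Ifit1 (ENSMUSG00000034459, chr19:34640871-34650009, plus strand) had 15 counts in FLExDUX4 mice and 42 in WT mice, a log2 ratio of -0.95 (-1.93 to -0.09). Ifit3 (ENSMUSG00000074896, chr19:34583531-34588731, plus strand) had 22 counts against 46, a ratio of -0.54 (-1.35 to 0.21). Both genes carry their ISRE cores in pairs, as shown above. Ifit3 has a copy, Ifit3b, which had 7 counts against 32 and a ratio of -1.62 (-3.10 to -0.47). Of the 426 words of 75 bases in the last 500 bases of the Ifit3 transcript, 42 (9.86%) also occur in Ifit3b, so a minor part of the Ifit3 reads could have been split or lost between them. In the last 500 bases of Ifit3b, 0 of 426 words occur in another gene. Together Ifit3 and Ifit3b had 29 counts against 78, a ratio of -0.90 (-1.58 to -0.28). That is lower than the ratio of Ifit3 alone because of the 7 and 32 counts of Ifit3b. Ifit2, chosen after its values were seen, had 23 counts against 39 and a ratio of -0.24 (-1.06 to 0.53). The intervals of Ifit2 and Ifit3 thus held 0, and those of Ifit1 and Ifit3b did not.

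ISG15 is a ubiquitin-like protein that is attached to other proteins during an interferon response. Isg15 (ENSMUSG00000035692, chr4:156199424-156200818, minus strand) had 6 counts in FLExDUX4 mice and 9 in WT mice. The log2 ratio of -0.06 has an interval of -1.84 to 1.58. These counts thus do not exclude a level up to 3.00-fold higher, or down to 0.279 of the WT level. The enzymes that attach ISG15 had more counts. Uba7, which activates ISG15, had 16 counts against 62, a ratio of -1.41 (-2.33 to -0.63). Herc6, the ligase for ISG15 in mice, had 25 against 62, a ratio of -0.78 (-1.53 to -0.10). Ube2l6, the conjugating enzyme, had 17 against 38, a ratio of -0.63 (-1.56 to 0.22), whereas Usp18, which removes ISG15, had only 4 against 6. Ube2l6 and Usp18 were named after their values were seen.

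IFITM3 and BST2 (tetherin) are membrane proteins, the former blocking virus entry and the latter holding budding virus at the cell surface. Ifitm3 (ENSMUSG00000025492, chr7:141009586-141010770, minus strand) had 744 counts in FLExDUX4 mice and 1151 in WT mice. Its log2 ratio of -0.11 has the narrowest interval of the 9 genes (-0.25 to 0.02), and with spike-in scaling it was -0.39. In the same locus, Ifitm2 had 200 counts against 289, a ratio of -0.01 (-0.28 to 0.25), and Ifitm6 had 18 against 2, a ratio of 3.35 (1.62 to 6.84). Bst2 (ENSMUSG00000046718, chr8:71534255-71537456, minus strand) had 35 counts in FLExDUX4 mice and 26 in WT mice, or 2.70 and 1.40 CPM. Its log2 ratio was 0.93 (0.17 to 1.74), or 0.66 with spike-in scaling, and it was the only one of the 9 genes that was higher under both scalings. Bst2 is also a marker of plasmacytoid dendritic cells. Of the other markers of that cell type, Siglech had 28 counts against 14, a ratio of 1.48 (0.54 to 2.56), Spib and Ccr9 were at 0 in both genotypes, and Tcf4 had 2620 against 3988, a ratio of -0.09. The part of these cells in the Bst2 ratio was not tested, and in whole muscle a change in the number of cells of a type and one in RNA per cell cannot be told apart.

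OASL2 is an oligoadenylate synthetase-like protein that responds to double-stranded RNA. Oasl2 (ENSMUSG00000029561, chr5:114896936-114912234, plus strand) had 33 counts in FLExDUX4 mice and 50 in WT mice, a log2 ratio of -0.08 (-0.76 to 0.58). The related Oas2 had 10 counts against 33, a ratio of -1.17 (-2.39 to -0.15). Oas3 had 9 counts in FLExDUX4 mice and 0 in WT mice, which is at least 4.29-fold higher with the WT total set at 3 counts, the limit taken here for a count of 0. That bound leaves out the counting error of the 9 counts, and with it the interval began at a log2 ratio of 1.497. Oas3 failed the filter on low counts.

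Upstream of the 9 genes, none of the 19 interferon genes examined, among them Ifnb1, Ifng and the interferon alpha genes, had a single count in either genotype. With 3 counts as the limit that a count of 0 allows, their levels could be up to 0.231 CPM in FLExDUX4 and 0.162 CPM in WT mice. Of 5 receptor chains compared, 3 were lower and 2 higher and none passed 1.5-fold, beside the 13.7% of all genes compared that were lower and 13.1% that were higher by that much. They ranged from Ifnar1, a chain of the type I receptor, at -0.34 (-0.91 to 0.21) to Ifngr1, of the interferon gamma receptor, at 0.25 (0.06 to 0.43), which was -0.03 with spike-in scaling. Of 9 JAK kinases and STAT factors beside Stat2, 4 were lower and 5 higher, again with none past 1.5-fold beside the same shares of all genes, from Stat5a at -0.13 (-0.45 to 0.20) to Stat6 at 0.26 (-0.05 to 0.58), which was -0.01 with spike-in scaling. Of 7 other interferon regulatory factors, 5 were lower, with a median of -0.36, whereas their summed counts gave a ratio of -0.03 (-0.15 to 0.09). Irf5, a factor of myeloid cells, had 31 counts against 71, a ratio of -0.67 (-1.34 to -0.05), and Irf2 had 459 against 544, a ratio of 0.27 (0.09 to 0.45), which was -0.0047 with spike-in scaling.

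Of 10 sensors and adaptors of nucleic acid sensing compared, 6 were lower and 4 higher, with a median of -0.22, whereas the summed counts of all 15 genes on the list gave a ratio of 0.14 (-0.01 to 0.30), less than the shift that spike-in scaling makes. Tmem173, which encodes the adaptor STING, had 12 counts against 43, a ratio of -1.30 (-2.38 to -0.38). In the other direction, Tlr3, a receptor for double-stranded RNA, had 33 against 24, a ratio of 0.96 (0.17 to 1.80), and Aim2, a DNA sensor, had 26 against 7, a ratio of 2.32 (1.17 to 3.86). Tlr7, which failed the filter and is not among the 10, had 11 against 2, a ratio of 2.66 (0.78 to 6.19). Of the negative regulators, 4 of 6 compared were lower. Socs3, a feedback inhibitor of JAK kinases, had 30 counts against 94, a ratio of -1.12 (-1.78 to -0.52), and Pias1 had 277 against 337, a ratio of 0.23 (-0.001 to 0.47), or -0.04 with spike-in scaling.

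The widest list held 44 further effectors of type I interferon, of which 35 were compared. In FLExDUX4 mice 21 were lower and 14 higher, with a median log2 ratio of -0.24, and the summed counts of the list gave a ratio of -0.10 (-0.17 to -0.03). At 1.5-fold, 13 of the 35 were lower and 4 higher, beside 13.7% and 13.1% of all genes compared. Within the range of 15 to 216 counts, 11 of 22 were lower and 4 higher, beside 25.3% and 23.5% of genes in that range. The counting interval lay below 0 for 12 of the 35 and above 0 for 3, beside 20.6% and 20.5% of all genes compared. The lowest ratios belonged to Eif2ak2, which encodes the kinase PKR, with 8 counts against 37 and a ratio of -1.64 (-3.01 to -0.57), and to Phf11d, with 13 against 52 and a ratio of -1.45 (-2.48 to -0.59). Adar, an RNA editing enzyme, had 18 against 57, a ratio of -1.13 with an interval below 0. Rtp4 had 35 against 96, a ratio of -0.93 (-1.54 to -0.37).
Better counted were Lgals3bp, with 115 against 270 and a ratio of -0.71 (-1.04 to -0.39), and Sp100, a nuclear body protein, with 74 against 174 and a ratio of -0.71 (-1.13 to -0.32). Ifi35, with 95 counts against 78, had a ratio of 0.80 (0.35 to 1.25), and Ifi44, with 41 against 36, had one of 0.70 (0.02 to 1.39). Mx2 had 5 counts in FLExDUX4 and 0 in WT mice, which is at least 2.38-fold higher with WT at 3 counts, and its interval began at a log2 ratio of 0.39. It failed the filter and is not among the 35. The list thus held genes past 1.5-fold in both directions, more of them lower.

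**Figure D4:**
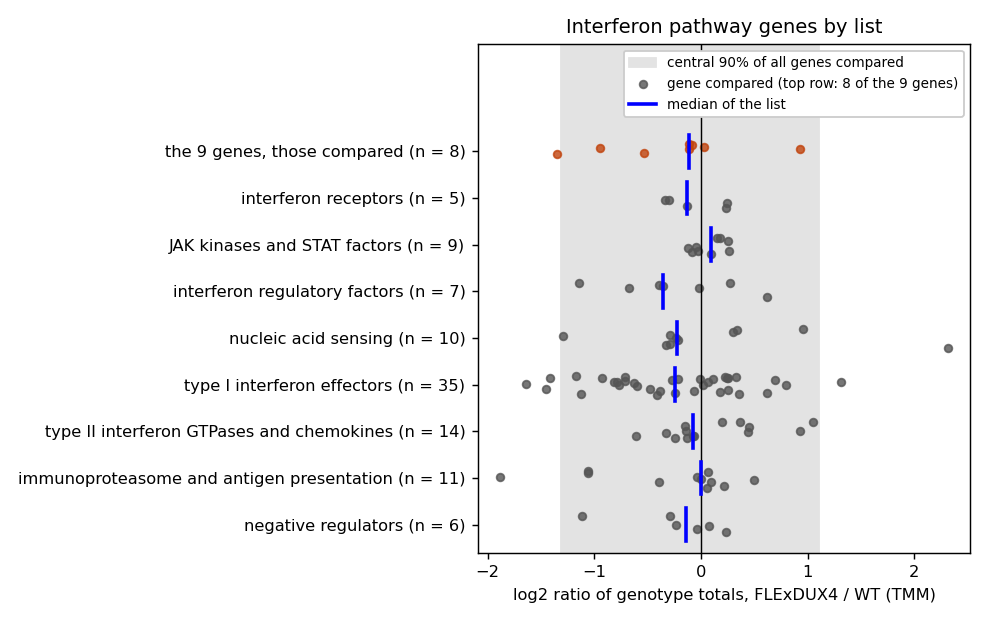
Log2 ratio of the FLExDUX4 to the WT total for every gene compared in the 9 genes and in 8 lists of interferon pathway genes. Points are genes, blue bars are list medians, and grey is the central 90% of all genes compared. The medians lie between -0.36 and 0.10, and the type I effectors have 13 of 35 genes at least 1.5-fold lower.

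Genes known mostly for induction by interferon gamma centred near 0, with 8 of 14 lower and a median of -0.07. Gbp4, a guanylate-binding protein, had the lowest ratio among those with at least 50 counts, at -0.61 (-1.46 to 0.17), and Igtp, whose annotation overlaps that of Irgm2 on the same strand, the highest, at 0.45 (0.11 to 0.79). Gbp6 had 0 counts in FLExDUX4 and 8 in WT mice, which is at least 1.86-fold lower with the FLExDUX4 total at 3 counts, and its interval ended at a log2 ratio of -0.26. It failed the filter and is not among the 14. Of 11 genes for antigen processing, 5 were lower and 6 higher with a median of 0.001, and 3 were at least 1.5-fold lower, beside 13.7% of all genes compared. These were Tap1, a peptide transporter, with 9 counts against 49 and a ratio of -1.88 (-3.14 to -0.89), the immunoproteasome subunit gene Psmb8, with 32 against 96 and a ratio of -1.06 (-1.69 to -0.48), and Psme2, a proteasome activator gene, with 79 against 236 and a ratio of -1.06 (-1.45 to -0.69). Psmb9, another immunoproteasome subunit, had 69 against 70 and a ratio of 0.49 with an interval that held 0.

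Ratios were also set beside the ISRE core. Of 345 genes compared with a core in the promoter table, 12.2% were at least 1.5-fold lower and 11.9% at least 1.5-fold higher, with a median of -0.01. Of 9262 without one, the shares were 11.8% and 11.7%, with a median of 0.002. Among the pathway genes other than the 9, 1 of 21 with a core was at least 1.5-fold lower and 1 higher, whereas 14 of 55 without one were lower and 5 higher. The difference between these shares was not tested. Of the 5 genes of the 9 that hold a core and were compared, 4 were lower and 1 higher, and of the 3 without one, 2 were lower and 1 higher.

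Markers of other cell types moved in several ways. Neutrophil markers summed to 2.08 CPM in FLExDUX4 and 8.46 CPM in WT mice, a log2 ratio of -2.01 (-2.67 to -1.43) in which S100a9 had 13 counts against 105 and S100a8 had 11 against 37, while Ly6g was at 0 in both. Macrophage and leukocyte markers summed to 105.5 and 102.2 CPM, with 5 of 12 higher, and none was at 0 in both. Endothelial markers summed to 293 and 310.3 CPM, with 6 of 8 lower. Fibroblast markers summed to 1299 and 1181 CPM, a log2 ratio of 0.14, with a list median of 0.04 and Col1a1 highest at 0.53. Adipocyte markers summed to 384 and 303 CPM, a ratio of 0.34. Blood markers summed to 1279 and 1019.8 CPM, a ratio of 0.33. The shift of 0.28 that spike-in scaling makes exceeds the fibroblast ratio and takes up most of the adipocyte and blood ratios. T, B and NK cell markers summed to 0.385 and 0.377 CPM, and 3 of 8 were at 0. The part of these cells in the ratios of Irf7, the Ifit genes and the effectors was not tested.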

How the data were processed

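RNA of 6 muscles was sequenced with the QuantSeq 3′ mRNA kit. The authors trimmed reads with Cutadapt 1.16 and aligned them with STAR 2.5.3a to GRCm38 with ERCC and SIRV spike-ins. Per the labels, featureCounts 1.6.2 is among the tools, with its settings not given in the sources used here. The deposited counts are raw and summed over the 3 mice of a genotype. The 6 columns of single samples, whose names match no label, and the authors' own comparison (mean, fold change, p-values) were not used, so the planned edgeR test across mice was not run. Replicate spread is therefore unknown.

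TMM factors came from edgeR 4.0.16 under R 4.3.3, with filterByExpr (minimum count 10) leaving 13396 genes, with a pseudocount of 0.5 on the log2 ratio. Intervals (95%, scipy 1.17.1, Python 3.11.15) cover counting error only, because each genotype enters as 1 total. Reads without molecular identifiers are not independent molecules, so the intervals may be too narrow even for that error. The steps were tested on simulated totals drawn with counting error alone, so that test says nothing about the spread between mice. Sequences are from RefSeq, and gene coordinates from GENCODE on GRCm38, where all 9 starts equal the deposited ones. Of the pathway genes, 124 had a promoter in the table. Itgam, on several rows, was taken from the row with the most counts. Gm9706, a listed copy of Isg15, was not analysed here.

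The 9 genes and the lists were chosen with earlier results of these data known. Genes named are the 9, the copies of the 9 that results turn on, the highest and lowest ratio of each list among genes with at least 50 counts, and genes past 1.5-fold whose interval left out 0, unless stated. Other scalings, filters, pseudocounts and folds were tried. One pathway gene is not reported here by name.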

Additional observations from a re-analysis of the deposited data

How the results depend on the processing

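No paired analysis was possible because the names of the single-sample columns match no label, so that neither mouse nor genotype was assigned to them, and the block fit, the DESeq2 test and leaving out each replicate were not run. RLE, upper quartile, gene totals with and without the 10 most abundant genes, the 3 filters and a pseudocount of 5 kept 7 of the 9 genes lower and 2 at least 1.5-fold lower. Spike-in totals gave 8 lower, 3 of them at least 1.5-fold, a median of -0.387 for the 9 genes, -0.278 for all genes compared and -0.513 for the type I effectors, and moved Ifitm3 to -0.389, outside its counting interval. Why the spike-ins shift the ratios was not tested. The 1834 genes at least 1.5-fold lower and 1751 higher became 3186 and 1044 with spike-in totals and 4997 and 4107 with no filter. With at least 50 counts over both totals they became 943 and 943, and with 10 in each total they became 1066 and 1286, so that more were higher. A cutoff of 10 counts asks for a higher level in FLExDUX4 mice, where 1 count is 0.0771 CPM, than in WT mice, where it is 0.0539 CPM. The part of this cutoff in the change was not tested. At 2-fold they were 1018 and 789, and 1 of the 9 genes (Irf7) was lower. Among genes with 15 to 216 counts, a range chosen after seeing the data, 1625 were lower and 1510 higher. Depth limits Isg15 most, with 15 counts in all.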
